A study of Mus musculus with 8 samples.

Results

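The comparison described here is between spinal cord immunoprecipitates of mice with and without Cre after a crush of the sciatic nerve. It used the 4 libraries whose titles name crushed mice, of 8 libraries in all, and covered the 15208 genes that passed a filter on low counts, of 38924 gene identifiers. The mice carried the ribosomal protein gene Rpl22 in a form that gains an HA tag in cells with Cre, and the labels give the Rpl22 genotype of all of them as +/-. In the Cre group (animals 35 and 52, aged 18 and 9 weeks) the Chat genotype is given as +/-, and the tag was switched on by Cre driven from the choline acetyltransferase gene. In the no-Cre group (animals 51 and 58, both aged 9 weeks) Chat is given as +/+, so no cell should carry the tag. The design text gives Gars as +/+, and the strain background is labelled B6.CgxB6.129. The sciatic nerve of 1 side was crushed with forceps, the whole spinal cord was taken, and an anti-HA antibody was used to precipitate ribosomes. No source used here gives the time from crush to collection. Libraries of uncrushed mice, 2 with Cre (animals 10 and 3) and 2 without (animals 4 and 6), all 8 weeks old, entered the fit and served as a comparison at the end.

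Motor neurons are cholinergic cells whose axons leave the cord, and they make acetylcholine with choline acetyltransferase and take choline back up through a dedicated transporter. Chat-Cre also marks the preganglionic autonomic neurons and the cholinergic interneurons of the cord. An injured motor neuron is known to switch on a regeneration programme of transcription factors, growth cone and cytoskeletal proteins, chaperones and peptides. In a tagged precipitate, mRNA on tagged ribosomes is enriched, and a precipitate without the tag holds mRNA that sticks to the beads, so the ratio of the first to the second is an enrichment over that background. Because the crush was on 1 side and whole cord was used, the libraries of crushed mice with Cre mix motor neurons of the crushed and the uncrushed side.

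The Cre libraries held 11522721 (animal 35) and 9401129 (animal 52) expected counts, and the no-Cre libraries held 4826979 (animal 51) and 6468110 (animal 58). A gene with 3 counts stood between 0.19 and 0.5 CPM (counts scaled to a common library total) in these libraries. Mitochondrial ribosomal RNA took 1.613% and 4.679% of counts with Cre and 11.474% and 39.914% without. Across genes, log2 CPM correlated at a Pearson r of 0.979 between the Cre libraries, 0.936 between the no-Cre libraries and 0.781 to 0.849 between libraries of different groups. These are correlations across genes, which are not independent replicates. Over crushed and uncrushed libraries together, those with Cre had a biological coefficient of variation of 0.202, and those without had 0.322. Animal 52 had 2046 counts of the X-inactivation RNA Xist and 0 of the Y-linked Ddx3y, while animals 35, 51 and 58 had 680, 198 and 204 counts of Ddx3y. Within the Cre group, age and these sex-linked transcripts therefore both differ between the animals, and their part in the results cannot be told apart. With 2 animals in each group, p-values rest on a spread that the fit estimated over all 8 libraries, crushed and uncrushed. They cover these animals only.

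Many mRNAs were enriched and about as many were depleted with Cre. The threshold for a call was an adjusted p of 0.05 in edgeR's quasi-likelihood test (Benjamini-Hochberg). Of 15208 genes 6521 were called (42.9%), 3286 higher with Cre (21.6%) and 3235 lower (21.3%). The higher genes had a median log2 fold change of 1.44, and 711 of them differed by at least 2 and 55 by at least 4 on the log2 scale. The lower genes had a median of -1.88, with 1454 and 119 genes past the same marks. Over all genes the median was -0.08. These shares and this median are the background for the count and median of every gene list in the fit of all libraries. Leaving out a crushed animal lowered the number of calls over all genes too. A fall of a list's count without an animal is therefore not by itself particular to that list. Both Cre libraries lay above both no-Cre libraries for 5758 genes (37.9%) and below them for 6125 (40.3%). Such separation held for all 3286 genes called higher and for 3233 of the 3235 called lower. For a called gene it is therefore a description and adds no separate support. The number of calls fell to 2733 (1745 higher, 988 lower) without animal 35, to 4250 without animal 52, to 4041 without animal 51 and to 5375 without animal 58. Scaling by library size alone shifted the median of all genes by 0.14, and higher genes then made up 59.6% of calls in place of 50.4%. Since a CPM is a share of its library, fewer cells of a type and less RNA per cell cannot be told apart from these values.

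**Figure D1:**
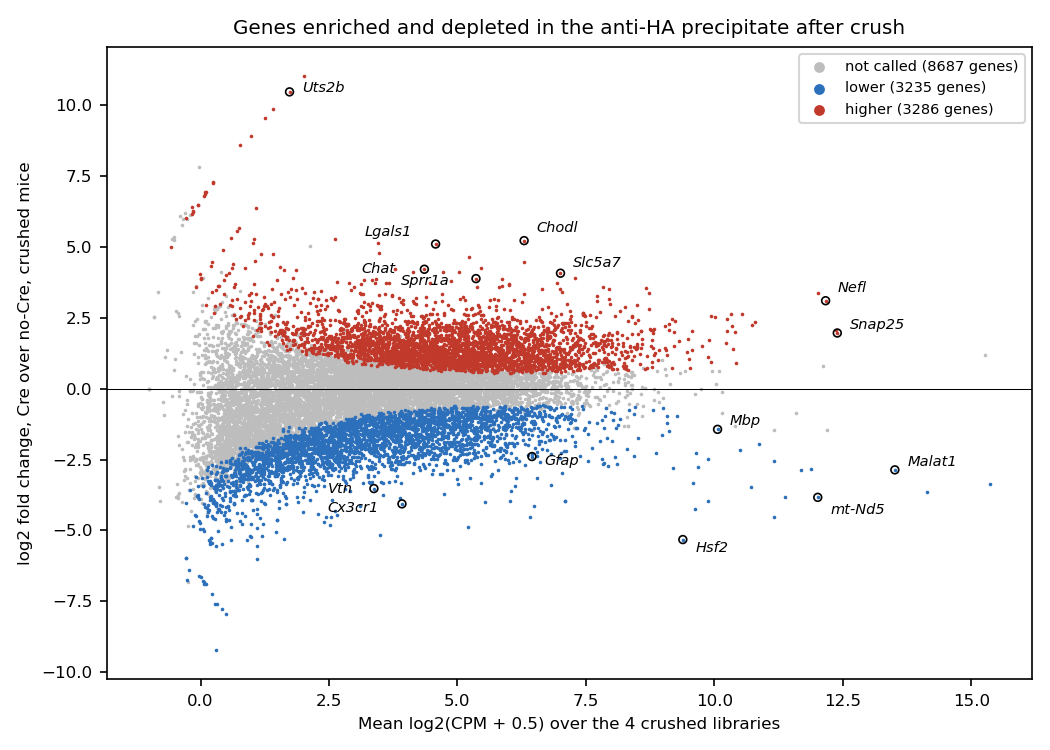
Each point is 1 of the 15208 genes tested, with the mean of log2(CPM + 0.5) over the 4 crushed libraries on the horizontal axis and the log2 fold change of Cre over no-Cre on the vertical axis. The 3286 genes called higher are red, the 3235 called lower are blue, and Chat, Chodl, Lgals1, Nefl and Snap25 lie among the red points and Malat1, mt-Nd5 and Hsf2 among the blue ones.

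The machinery of acetylcholine marked the enriched side. Chat (ENSMUSG00000021919), the acetylcholine-making enzyme, had levels of 78.2 and 90.9 CPM with Cre and of 5.16 and 3.83 CPM without, an 18.6-fold difference (log2 4.22 ± 0.28 SE, edgeR adjusted p = 2.58e-05, n = 2 per group). Slc5a7, the choline transporter of cholinergic terminals, stood at 535 and 527 CPM against 24.2 and 38.7 CPM (log2 4.08 ± 0.29). Slc10a4, a vesicular protein of cholinergic neurons, stood at 202 and 170.0 CPM against 4.75 and 10.0 CPM (4.67 ± 0.35). In all of them the Cre libraries lay close together and far above both no-Cre libraries. Acly, which makes the cytosolic acetyl-CoA used for acetylcholine and for lipids, reached 783 and 648 CPM against 76.0 and 103 CPM (3.00 ± 0.28). Of 9 measured genes of acetylcholine synthesis, transport and breakdown, 6 were called higher and 1 lower (0 lower without animal 52), where 21.6% of all genes were higher and 21.3% lower. Their median log2 fold change was 2.08 against -0.08 over all genes. The vesicular transporter Slc18a3 was not matched and is not analysed here. Rpl22, which carries the tag, was at 31.0 and 26.8 CPM with Cre and at 17.2 and 25.8 CPM without (0.43 ± 0.27, edgeR adjusted p = 0.218).

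**Figure D2:**
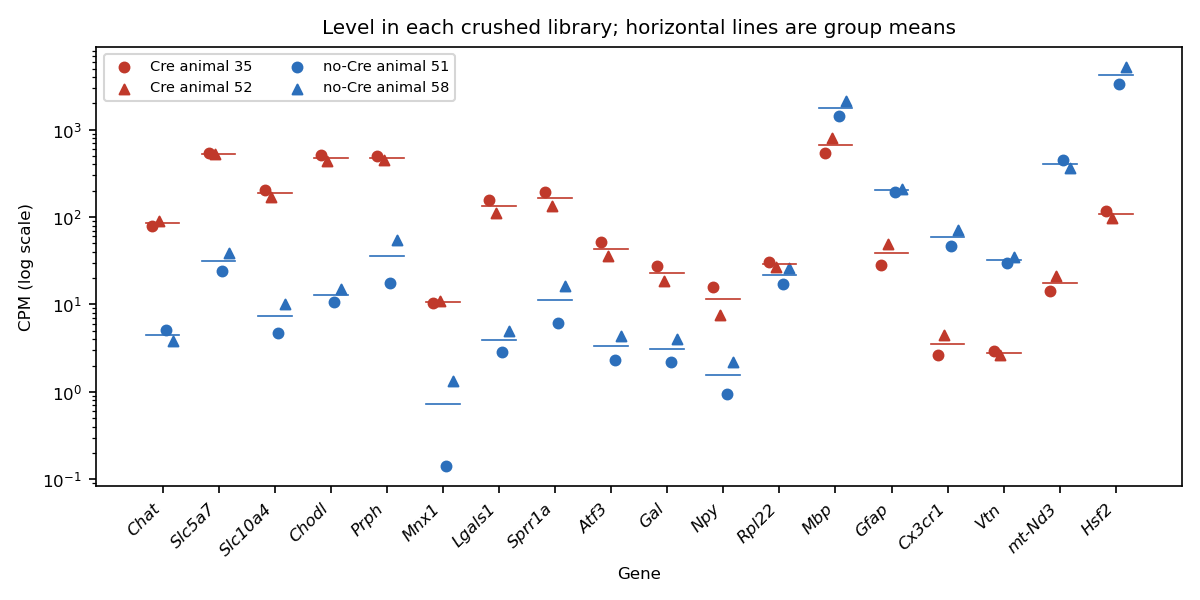
CPM on a log scale for 18 genes in each of the 4 crushed libraries, with Cre libraries in red, no-Cre libraries in blue and group means as horizontal lines. From Chat to Npy both red libraries lie above both blue ones, Rpl22 is at a similar level in all 4, and from Mbp to Hsf2 the order is reversed.

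Markers of motor neuron classes were mostly on the enriched side, while motor neuron transcription factors were divided. Chodl (ENSMUSG00000022860), a marker of fast motor neurons, had the smallest p of all genes, at 516 and 436 CPM with Cre and 10.6 and 14.8 CPM without (log2 5.23 ± 0.34, edgeR adjusted p = 2.58e-05). Calca, which encodes the peptide CGRP of motor and sensory neurons, had 432 and 342 CPM against 9.23 and 26.0 CPM (4.47 ± 0.46), and its paralog Calcb at 59.3 and 45.4 CPM against 1.36 and 2.50 CPM (4.78 ± 0.36). Spp1, the secreted protein osteopontin of alpha motor neurons, reached 634 and 583 CPM against 30.1 and 51.0 CPM (3.91 ± 0.31). Of 18 class markers 10 were higher and 3 lower, with a median of 1.50. Among the lower ones was Kcnq5, a potassium channel. The VIP receptor gene Vipr2 (3.74 ± 0.31) and the kinase gene Stk32a (3.14 ± 0.24) were among the higher ones.

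Of 21 motor neuron transcription factors measured, 7 were called higher and 6 lower, with a median of -0.17 against -0.08 over all genes. Leaving out animal 35 left 2 lower calls, and leaving out animal 52, 51 or 58 left 3. Mnx1, the homeobox factor of motor neurons, had 10.4 and 10.9 CPM with Cre and 0.14 and 1.33 CPM without (3.92 ± 0.64, edgeR adjusted p = 0.0011). The level in animal 51 was 1 count, under the floor of 3, and the log2 fold change was 6.20 without animal 58 and 3.02 without animal 51. Lhx4 (2.39 ± 0.39), a LIM homeobox factor, and Bcl6 (2.31 ± 0.22), a transcriptional repressor, were higher. Isl1, the LIM homeobox factor of newborn motor neurons, was at 8.92 and 7.99 CPM against 0.95 and 5.33 CPM, so the groups did not overlap but the difference did not pass (1.46 ± 0.66, edgeR adjusted p = 0.0921). It was 0.70 without animal 51 and passed without animal 58 (3.18, edgeR adjusted p = 0.0109), as it did with library size alone, with no filter on low counts and in limma-voom. Olig2, which marks progenitors and later the oligodendrocyte lineage, was lower at 3.29 and 5.93 CPM against 20.4 and 29.3 CPM (-2.43 ± 0.38). Zeb2, a zinc finger factor also made by glia, was lower at 48.1 and 70.2 CPM against 304 and 272 CPM (-2.28 ± 0.31).

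Neuropeptides and secreted signals were on the enriched side for most members. Of 17 neuropeptide genes measured 11 were called higher and 1, Tac1, lower (21.6% and 21.3% of all genes), with a median of 2.36, with 7 called higher without animal 35 and 0 lower without animal 58. Uts2b, which encodes the urotensin-related peptide, had 619 counts in the Cre libraries (23.0 and 20.3 CPM) and 0 in both no-Cre libraries, at least 97.0-fold higher where the floor is 3 counts over the group. Uts2, urotensin 2, stood at 65.6 and 55.9 CPM against 0.68 and 2.83 CPM (5.16 ± 0.63). Both libraries with Cre were far above the 2 without for either gene. Cartpt, the precursor of CART peptide, was at 39.7 and 29.3 CPM against 1.63 and 5.50 CPM (3.31 ± 0.49), and neurotensin, Nts, at 42.0 and 36.2 CPM against 3.66 and 4.33 CPM (3.29 ± 0.30). Vdr, the vitamin D receptor, had 27.8 and 32.4 CPM against 0.81 and 0.67 CPM (5.30 ± 0.44), one of the widest gaps between the groups.

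Of 28 secreted and adhesion genes 17 were higher and 6 lower, with a median of 1.14. Fewer were called in both directions without animal 35, 52 or 51, and scaling by library size alone left 15 higher and 4 lower. Fgf1, a fibroblast growth factor held in neurons, was at 1451 and 1307 CPM with Cre and 110 and 152 CPM without (3.39 ± 0.32). Rspo2, a Wnt agonist, stood at 44.2 and 37.4 CPM against 2.99 and 3.17 CPM (3.73 ± 0.30). Pdgfd (3.35 ± 0.24), a platelet-derived growth factor, Mcam (3.15 ± 0.24), an adhesion molecule, and Nrg1 (2.43 ± 0.23), the neuregulin of motor axons, were likewise higher. The receptors for glial-derived neurotrophic factor were enriched, Ret at 307 and 285 CPM against 34.2 and 45.7 CPM (2.89 ± 0.38) and its co-receptor Gfra1 at 177 and 161 CPM against 27.6 and 21.3 CPM (2.79 ± 0.34). Of 22 neurotrophic and cytokine receptors 7 were higher and 7 lower (21.6% and 21.3% of all genes, median 0.27), which fell to 4 and 3 without animal 35 and to 4 and 2 without animal 51, with 3 lower without animal 52. Erbb4, a neuregulin receptor, was lower at 9.11 and 17.1 CPM against 71.0 and 56.6 CPM (-2.29 ± 0.32).

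Genes known from injured axons were higher with Cre for 23 of the 34 measured and lower for 3, with a median log2 fold change of 1.85 against -0.08 over all genes, and 16 of them were called higher without animal 35. Sprr1a (ENSMUSG00000050359), a proline-rich protein known from regrowing axons, stood at 193 and 133 CPM with Cre and 6.11 and 16.2 CPM without (log2 3.89 ± 0.40, edgeR adjusted p = 0.000105). Atf3, a stress-induced transcription factor, was at 51.5 and 35.8 CPM against 2.31 and 4.33 CPM (3.73 ± 0.50). Animal 35 was above animal 52 for both genes, and animal 58 above animal 51. The same order was seen for galanin, Gal, a neuropeptide, at 27.2 and 18.6 CPM against 2.17 and 4.00 CPM (2.90 ± 0.56), and for neuropeptide Y, Npy, at 15.7 and 7.60 CPM against 0.95 and 2.17 CPM (2.92 ± 0.57, edgeR adjusted p = 0.00235). Without animal 35 Npy lost its call (2.33, edgeR adjusted p = 0.0671).

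Lgals1 (ENSMUSG00000068220), the secreted galectin of growing axons, was at 157 and 111 CPM with Cre and 2.85 and 5.00 CPM without (5.11 ± 0.33, edgeR adjusted p = 2.58e-05). Hspb1, a small heat shock protein that protects motor neurons, had 153 and 117 CPM against 5.56 and 10.2 CPM (4.11 ± 0.44), and S100a10, a partner of annexin A2, at 130.2 and 86.6 CPM against 4.48 and 8.16 CPM (4.11 ± 0.34). All 3 separated the groups widely. Gap43, the growth-associated protein, had the smaller difference of 141 and 97.0 CPM against 34.3 and 42.8 CPM (1.63 ± 0.33, edgeR adjusted p = 0.00311). Jun was at 89.6 and 73.3 CPM against 16.3 and 24.7 CPM (2.00 ± 0.28), and Stat3, a transcription factor of cytokine signalling, at 116 and 108 CPM against 29.6 and 33.2 CPM (1.83 ± 0.21). The members called lower were Fgf2, a growth factor, Nrn1, a surface protein that promotes neurite growth, and Stmn4, a stathmin. The log2 fold change was -1.24 for Nrn1 and -1.01 for Stmn4, and none is given for Fgf2, which had 1 and 0 counts with Cre and 8 and 3 without. None of these 3 kept its call without animal 35, 52 or 58. Of 21 transcription factors known from axotomy 4 were higher and 2 lower (median 0.39), the lower calls falling to 0 without animal 35, 52 or 51. Klf7, a factor of axon growth, was at 91.1 and 75.3 CPM against 80.6 and 80.0 CPM.

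AP-1, the dimer that Jun and Atf3 can form, binds TGACTCA and its reverse complement TGAGTCA. RefSeq promoters (GRCm38.p6, 250 bases before to 50 after the start) were found for 15 of the 23 injury genes called higher, and 2 of those genes held an AP-1 match on either strand, where 5.2% of all 32851 promoter sequences do. The cyclic AMP response element TGACGTCA, which has no overlap with the AP-1 letters as searched, was in 0 of them and in 1.79% of all promoters. Of the 15 genes searched, all called higher, only Sprr1a and Anxa2 are shown, because their promoters held a match. Capitals mark the AP-1 matches, of which Sprr1a (chr3:92485832-92486131, minus strand) has 2 and Anxa2 (chr9:69453433-69453732, plus strand) has 1.
Sprr1a: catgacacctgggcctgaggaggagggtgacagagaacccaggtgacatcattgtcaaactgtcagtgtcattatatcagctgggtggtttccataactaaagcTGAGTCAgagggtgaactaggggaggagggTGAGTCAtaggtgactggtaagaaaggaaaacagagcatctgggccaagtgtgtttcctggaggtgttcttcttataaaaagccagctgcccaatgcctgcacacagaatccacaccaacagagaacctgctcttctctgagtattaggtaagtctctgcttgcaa
Anxa2: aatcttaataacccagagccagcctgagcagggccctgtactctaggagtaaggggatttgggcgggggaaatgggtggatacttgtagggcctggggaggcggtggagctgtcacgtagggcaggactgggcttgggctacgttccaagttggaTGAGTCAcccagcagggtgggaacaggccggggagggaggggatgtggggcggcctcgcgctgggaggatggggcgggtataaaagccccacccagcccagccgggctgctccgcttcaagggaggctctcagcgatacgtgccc
A match is a description of the letters and not evidence of binding, and no match in the windows of Atf3, Jun, Gal and Npy says only that these letters are not there.

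Neuronal intermediate filaments and tubulins were on the enriched side. All 5 neuronal intermediate filament genes were higher, with a median of 3.11 against -0.08 over all genes. Nefm and Nefl, the medium and light neurofilaments, followed Snap25 as the most abundant enriched mRNAs per length, at a mean of 10018 and 9868 TPM (the deposited level scaled for transcript length) with Cre. On the CPM scale Nefl stood at 13986 and 13168 against 1322 and 1828 (3.11 ± 0.36), Nefm at 14043 and 13129 against 1044 and 1553 (3.39 ± 0.43) and Nefh at 3185 and 3300 against 395 and 655 (2.63 ± 0.37). Prph, the peripherin of neurons with peripheral axons, was at 497 and 451 CPM against 17.5 and 54.0 CPM (3.74 ± 0.45). Of 13 tubulins 12 were higher and 0 lower, with a median of 2.58. Tubb3, the neuronal beta tubulin, was at 802 and 787 CPM against 52.3 and 79.5 CPM (3.59 ± 0.28), and Tubb6, a beta tubulin known from regenerating neurons, at 35.1 and 22.7 CPM against 4.61 and 2.83 CPM (2.94 ± 0.46).

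Growth cone proteins and stathmins were higher for 12 of 21 and lower for 6 (median 0.95), of which 2 were called without animal 35 or 58 and 3 without animal 52. Stmn2, the stathmin of growing axons, had 1661 and 1206 CPM against 86.5 and 159 CPM (3.55 ± 0.34), and Fabp7, a fatty acid binding protein of radial glia and astrocytes, was lower at 3.42 and 2.69 CPM against 20.9 and 20.0 CPM (-2.73 ± 0.31). Among 16 annexins and S100 proteins 6 were higher and 6 lower (median 1.10), with 2, 3 and 1 lower without animals 35, 52 and 58. Anxa6 was at 436 and 414 CPM against 40.0 and 39.7 CPM (3.42 ± 0.25) and Anxa2 at 189 and 158 CPM against 10.3 and 29.0 CPM (3.15 ± 0.40), both membrane-binding proteins. S100a16 was lower at 2.28 and 3.09 CPM against 10.9 and 23.5 CPM (-2.67 ± 0.46), and S100b, also an astrocyte marker, was at 368 and 284 CPM against 108 and 245 CPM (0.89 ± 0.36, edgeR adjusted p = 0.0641). S100b passed without animal 58 (1.65, edgeR adjusted p = 0.00352), with library size alone, with no filter on low counts, in DESeq2 and in limma-voom, and was at 0.45 without animal 51. Of 21 actin, myosin and actin-binding genes 8 were higher and 4 lower (median 0.51, with 2 lower without animal 35, 52 or 58), with Actg1, cytoplasmic gamma actin, at 2.58 ± 0.35 and the filamin Flna at -2.15 ± 0.39.

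Snap25, a fusion protein of synaptic vesicles, was the most abundant enriched mRNA per length, at a mean of 15295 TPM with Cre. It stood at 11394 and 10095 CPM against 2209 and 3293 CPM (1.97 ± 0.34). Among the mRNAs that followed the neurofilaments, at 8658 to 3664 TPM, were those of Calm2, a calmodulin, Gapdh of glycolysis, the predicted gene Gm10123, the mitochondrial ATP synthase subunit gene Atp5b, the chaperone Hspa8 and the tubulins Tuba1a and Tuba1b. Tuba1a and Tuba1b have close copies, as do Calca and Calcb, and reads of such copies could be split between them by the counting. Synaptic vesicle and release genes were higher for 18 of 29 and lower for 2 (0 without animal 35 and 1 without animal 52, 51 or 58), with a median of 1.18. Vamp1, the synaptobrevin of motor terminals, was at 1605 and 1266 CPM against 177 and 365 CPM (2.41 ± 0.35), and the vesicle proteins Sv2b (2.24 ± 0.24) and Rab3a (2.21 ± 0.31) were higher by similar amounts. Of 49 kinesin and dynein subunits 20 were higher and 6 lower (median 0.24, with 3 lower without animal 35), with Klc1, a kinesin light chain, at 2.40 ± 0.24 and Kif13b at -2.36 ± 0.30. The axonal kinesin Kif1b, at 1086 and 1137 CPM against 978 and 991 CPM, did not pass (0.18 ± 0.25).

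Ion channels and transmitter receptors were closer to the background. Of 63 potassium channel genes 16 were higher (25.4% against 21.6% of all genes) and 11 lower (17.5% against 21.3%), with a median of 0.19, and without animal 35, 52 or 58 the lower ones were 6, 7 and 7. Single channels nonetheless differed strongly. Kcnj14, an inward rectifier of motor neurons, was at 119.5 and 95.0 CPM against 6.38 and 8.83 CPM (3.82 ± 0.28), and Kcng4, a modulatory subunit, at 243 and 219.7 CPM against 21.7 and 13.7 CPM (3.70 ± 0.32). Of 35 sodium and calcium channel genes 7 were higher (4 without animal 35) and 5 lower (2 without animal 35, 52 or 51 and 3 without animal 58), with a median of 0.05, where 21.6% and 21.3% of all genes were called, among the higher ones Cacna2d3 (1.96 ± 0.26) and Cacnb1 (1.86 ± 0.27), both auxiliary calcium channel subunits. Ionotropic glutamate receptors were 5 higher and 5 lower of 18 (median -0.20). These fell to 1 and 1 without animal 35 and to 2 and 2 without animal 52, with 3 lower without animal 51 and 1 higher without animal 58. Grin3b, the NMDA receptor subunit known from motor neurons, stood at 11.7 and 12.7 CPM against 1.09 and 0.17 CPM (4.18 ± 0.61), while the kainate receptor gene Grik3 was lower (-1.91 ± 0.27). The Grin3b level in animal 58 was under the floor of 3 counts, and its log2 fold change ran from 3.52 to 6.1 over the alternative fits. Of 19 GABA and glycine receptor genes 6 were higher (2 without animal 35) and 1 lower (0 without animal 51), with a median of 0.06 and the shared glycine receptor subunit Glrb at 208 and 189.9 CPM against 60.1 and 77.0 CPM (1.54 ± 0.23). Chrm2, the muscarinic receptor of motor neurons, was at 125 and 116 CPM against 32.0 and 31.7 CPM (1.92 ± 0.26), one of 2 acetylcholine receptors called higher of 9, with 1 lower. Without animal 35 there was 1 higher, and 0 were lower without any 1 of the 4 crushed animals. Axon guidance receptors had 6 higher and 7 lower of 26 (median -0.39), with 2 and 2 without animal 35, 3 higher without animal 52, 2 lower without animal 51 and 2 higher without animal 58. The semaphorin receptor Plxnb1 was lower at 10.3 and 15.9 CPM against 82.0 and 58.0 CPM (-2.42 ± 0.30), as was the ephrin Efnb3 (-2.02 ± 0.28).

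The extracellular net around neurons was split. Of 11 perineuronal net genes 4 were higher and 7 lower (median -1.36), with 2 and 4 without animal 35 and 4 lower without animal 51. Hapln4, a link protein that neurons make, was at 215 and 226 CPM against 55.8 and 54.5 CPM (2.00 ± 0.22). Vcan, the proteoglycan versican of oligodendrocyte precursors, was lower at 9.05 and 14.3 CPM against 78.3 and 37.2 CPM (-2.31 ± 0.37), and Ptprz1, a glial phosphatase, at 22.3 and 28.9 CPM against 121 and 84.8 CPM (-2.01 ± 0.27).

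Cytosolic tRNA synthetases and their cofactors were higher for 19 of 23 and lower for 0, with a median of 1.23 against -0.08 over all genes, and 12 were called without animal 35. Gars, the glycyl-tRNA synthetase whose variants cause a motor neuropathy, had 137 and 121 CPM against 25.4 and 44.2 CPM (1.90 ± 0.32), and Nars, for asparagine, at 579 and 543 CPM against 106 and 172 CPM (2.02 ± 0.27). Translation factors were higher for 44 of 68 and lower for 3 (median 1.03), with 26 called higher without animal 35, and 1, 1 and 5 lower without animals 35, 52 and 51. Eef1a2, the elongation factor of neurons and muscle, was higher (2.46 ± 0.23). Cytosolic ribosomal proteins were higher for 44 of 78 and lower for 0 (median 0.94). That count moved to 17 without animal 35, 22 without animal 51 and 63 without animal 58. Mitochondrial ribosomal proteins were higher for 44 of 74 and lower for 0 (median 1.24), with 13 called without animal 35 and 21 without animal 51.

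Proteasome subunits were higher for 33 of 36 and lower for 0, with a median of 1.68. Psma5, a core subunit, was at 121 and 98.9 CPM against 17.0 and 19.0 CPM (2.62 ± 0.24), and Psmc2, a regulatory ATPase, was an exception at 121 and 123 CPM against 141 and 125 CPM (-0.13 ± 0.22). Of 20 genes of the chaperone pathway around Bag3 15 were higher and 1, Synpo2, lower (median 1.89), and Synpo2 was not called without animal 35, 52 or 51. Bag3, the co-chaperone that hands damaged filaments to autophagy, had 224 and 226 CPM against 14.7 and 21.2 CPM (3.65 ± 0.26), and its partner Hspb8 at 230.3 and 175 CPM against 16.2 and 16.8 CPM (3.62 ± 0.26). Hspa8, the constitutive Hsc70, was at 3691 and 3749 CPM against 701 and 848 CPM (2.26 ± 0.28). Endoplasmic reticulum chaperones were higher for 10 of 22 and lower for 1 (median 0.80), with 5, 4 and 5 higher and 0 lower without animals 35, 52 and 51, and Hspa5, the chaperone BiP, stood at 238 and 249.5 CPM against 92.3 and 82.1 CPM (1.48 ± 0.24). Of 22 genes of the amino acid stress response 5 were higher (3 without animal 35 or 51) and 5 lower (2 without animal 35, 52 or 58), with a median of -0.37. Chac1, a glutathione-degrading enzyme, was higher at 12.7 and 9.02 CPM against 1.22 and 0.83 CPM (3.37 ± 0.56), as was the asparagine synthetase Asns (2.14 ± 0.28). Slc7a11, the cystine transporter of glia, was lower at 3.61 and 9.18 CPM against 58.4 and 40.8 CPM (-2.97 ± 0.40).

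Nuclear and mitochondrial genes for oxidative phosphorylation lay on opposite sides. Of 77 nuclear genes 66 were higher and 0 lower, with a median of 1.56, and 41 were called without animal 35. Atp5o, a subunit of ATP synthase, was at 181 and 146 CPM against 21.7 and 37.8 CPM (2.46 ± 0.29), and Ndufs8, of complex I, at 54.4 and 38.5 CPM against 6.92 and 8.83 CPM (2.56 ± 0.31). All 13 protein genes of the mitochondrial genome were lower, with a median of -3.83. mt-Nd3 stood at 14.4 and 21.1 CPM with Cre and 449 and 368 CPM without (-4.52 ± 0.41), and mt-Nd5 at 807 and 1429 CPM against 16399 and 15403 CPM (-3.83 ± 0.49). mt-Rnr2, the large mitochondrial ribosomal RNA, had the highest level of the lower genes without Cre, at 52941 CPM in animal 51 and 286218 CPM in animal 58, against 8437 and 24769 CPM with Cre (-3.35 ± 0.88, edgeR adjusted p = 0.0112). Its no-Cre libraries were far apart, and it was not called without animal 35 (-2.74) or 58 (-1.62). Cholesterol synthesis genes were higher for 15 of 22 and lower for 1 (median 0.99), with 9 called higher without animal 35 and 0 lower without animal 35, 52 or 51. Hsd17b7, an enzyme of the pathway, was at 115 and 117 CPM against 26.3 and 24.7 CPM (2.18 ± 0.22).

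Genes mutated in motor neuron disease and motor neuropathy were higher for 21 of 30 and lower for 2, with a median of 1.27, and 1 was lower without animal 52. Sod1, the superoxide dismutase mutated in amyotrophic lateral sclerosis, stood at 392.05 and 304.35 CPM against 54.0 and 93.1 CPM (2.24 ± 0.30). Several of these genes, such as Hspb1, Hspb8, Nefl and Gars, are also members of the lists above.

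**Figure D3:**
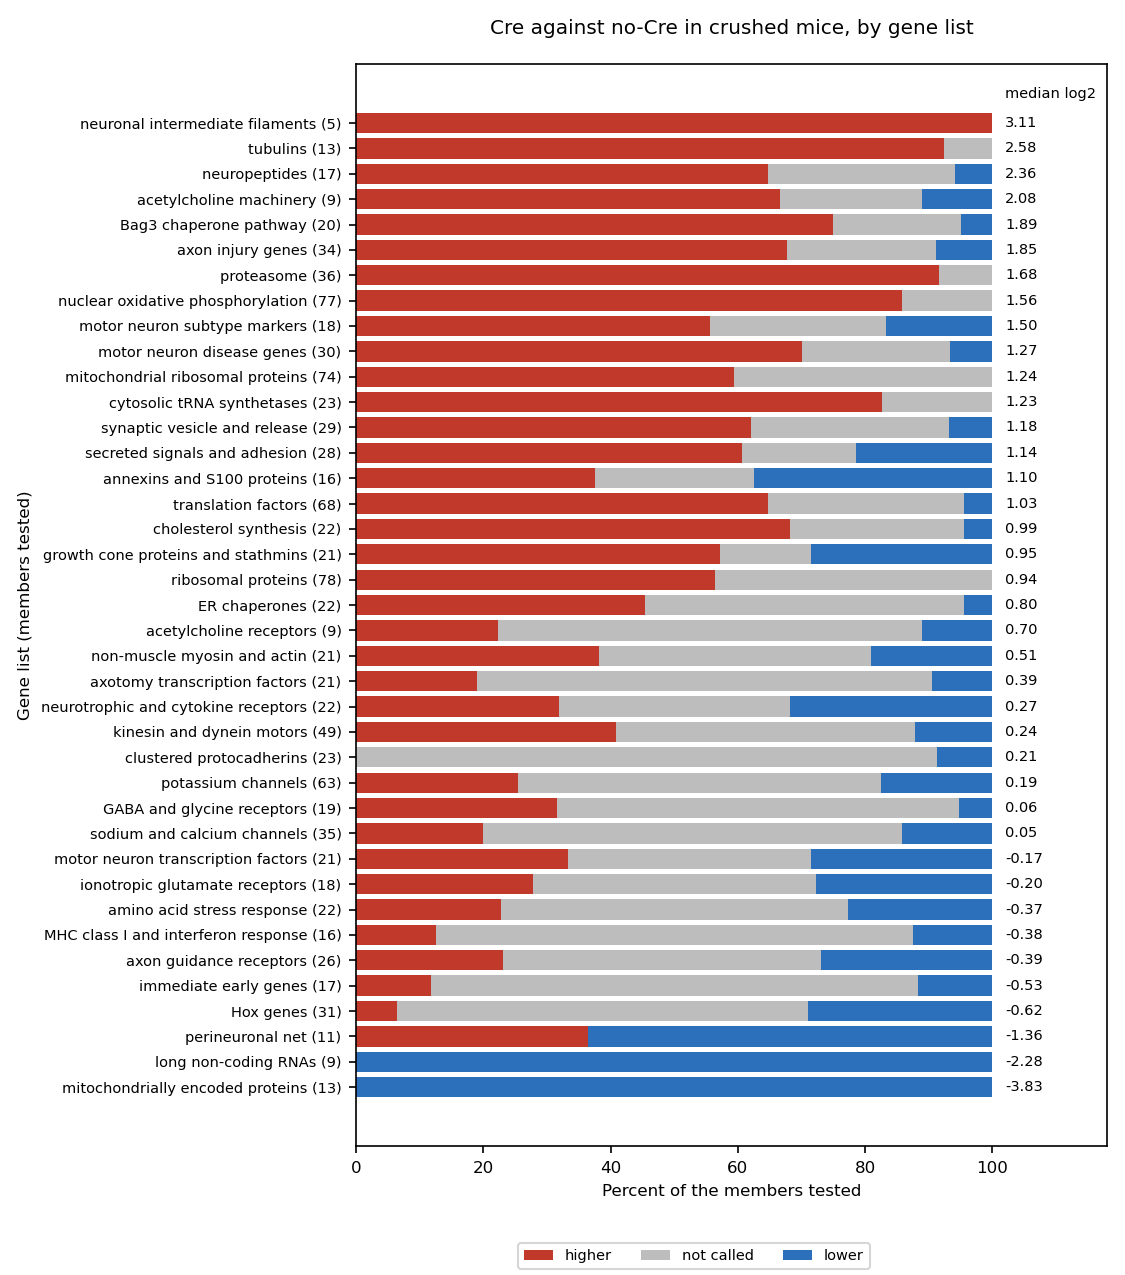
Percent of the tested members of each gene list that were called higher (red), not called (grey) or called lower (blue) with Cre in crushed mice, with the number tested after each name and the median log2 fold change at the right. Lists run from neuronal intermediate filaments (5 of 5 higher) and tubulins at the top to long non-coding RNAs and mitochondrially encoded proteins (13 of 13 lower) at the bottom.

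Genes of glia, vessels, meninges and blood were lower with Cre. Of 16 oligodendrocyte markers 16 were called lower (median -2.27 against -0.08 over all genes), of 8 precursor markers 8 (-2.49, and 5 without animal 35), of 14 astrocyte markers 13 (-2.40), of 19 microglia and macrophage markers 14 (-2.39, and 7 without animal 35), and of 14 markers of endothelium and pericytes 12 (-2.49). No marker in these lists was called higher, and none was at 0 in any of the 4 libraries. Their part in the results on neuronal genes was not tested. Mbp, myelin basic protein, was at 535 and 795 CPM with Cre against 1439 and 2135 CPM (-1.43 ± 0.32), and was not called without animal 35 (-1.13, edgeR adjusted p = 0.0935). The summed level of the oligodendrocyte markers was 1258 and 2054 CPM with Cre, so myelin mRNA was reduced and not absent.

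Slc1a2, the glutamate transporter of astrocytes, had 262 and 375 CPM against 2509 and 1845 CPM (-2.77 ± 0.35), and the gap junction gene Gja1 at 7.41 and 9.97 CPM against 60.4 and 80.1 CPM (-3.02 ± 0.39). Cx3cr1, the fractalkine receptor of microglia, was at 2.66 and 4.43 CPM against 46.1 and 71.8 CPM (-4.06 ± 0.38), and the complement-related and lysosomal markers Itgam (-2.86 ± 0.35) and Ctss (-2.82 ± 0.35) followed. Vtn, vitronectin of pericytes, was at 2.97 and 2.61 CPM against 29.7 and 35.0 CPM (-3.52 ± 0.31). In each of these genes both Cre libraries were below both no-Cre libraries, as in 3233 of the 3235 genes called lower. Ptgds, a prostaglandin synthase that meninges and oligodendrocytes make, had 16.1 and 21.2 CPM against 246 and 207 CPM (-3.60 ± 0.33), and 6 of 10 meningeal fibroblast markers were lower. Of 9 Schwann cell markers 6 were lower, while Pmp22, a myelin protein, at 424 and 321 CPM against 188 and 347 CPM, was not called except without animal 58 (1.03, edgeR adjusted p = 0.0498), when 1 Schwann marker was higher and 4 lower.

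Markers of interneurons and sensory ganglion neurons gave mixed values, and no blood or skeletal muscle marker was called higher. Of 11 inhibitory interneuron markers 4 were lower and 1, the calcium-binding protein gene Calb2, higher (median -0.51). The lower ones were 1 without animal 35 or 58 and 2 without animal 52, and 2 were higher without animal 58. Of 6 excitatory markers 3 were lower (1 without animal 35, 52 or 58) and 1, the peptide gene Cck, higher (-0.80). Slc6a5, the glycine transporter of inhibitory neurons, was at 84.4 and 132 CPM against 249 and 344 CPM (-1.45 ± 0.28), and Slc17a6, a vesicular glutamate transporter, at 29.4 and 26.7 CPM against 74.9 and 100.1 CPM (-1.64 ± 0.28). Pan-neuronal genes, shared by all of these cells, were higher for 13 of 15 and lower for 0 (median 1.97), with summed levels of 46253 and 42146 CPM against 5785 and 8377 CPM. Of 5 sensory ganglion genes only Calca was called (without animal 35, 1 other was lower), and Scn10a, a sodium channel of sensory neurons, varied within groups at 5.76 and 0.08 CPM with Cre and 0.14 and 11.7 CPM without. Of 9 blood cell markers 8 were lower, with Hbb-bs, a beta globin, at 38.0 and 38.4 CPM against 165 and 642 CPM (-3.40 ± 0.63). Skeletal muscle markers summed to 13.7 and 3.7 CPM with Cre and to 256 CPM (animal 51) and 66.5 CPM (animal 58) without. Of 10 muscle markers 6 were lower, but 0 were called without animal 51 and 2 without animal 52. Car3, a carbonic anhydrase of muscle and fat, was at 0.32 and 0.24 CPM against 11.26 and 11.99 CPM (-5.30 ± 0.90). The part of such tissue in the no-Cre libraries was not tested.

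**Figure D4:**
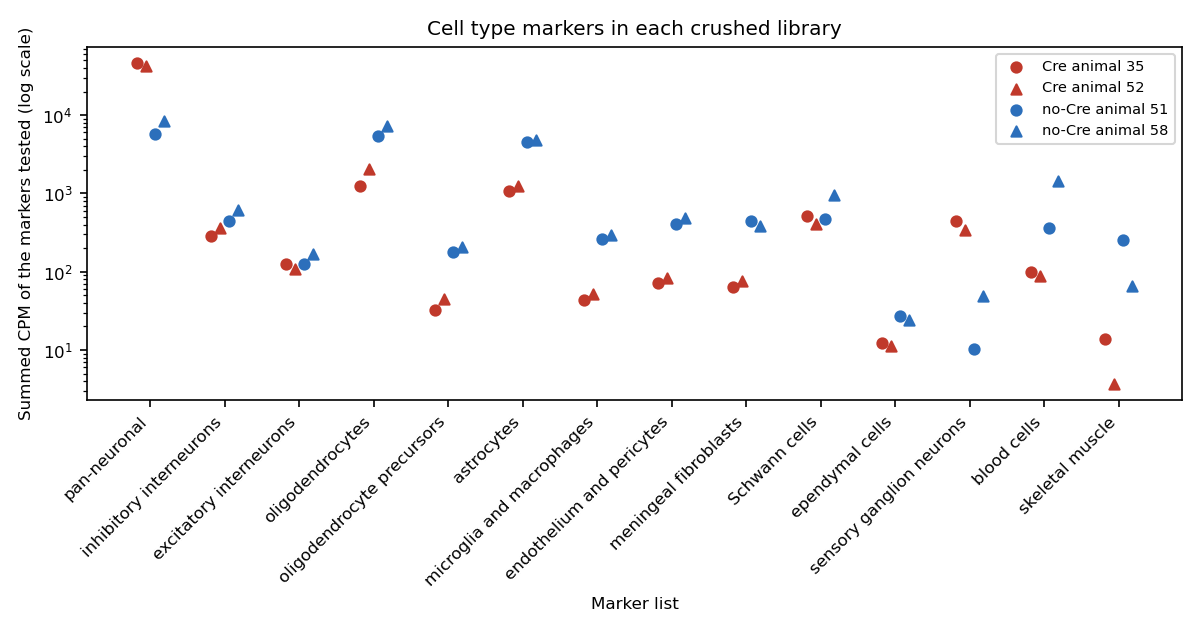
Summed CPM of the tested markers of each cell type on a log scale, in each of the 4 crushed libraries (Cre red, no-Cre blue). The pan-neuronal sum is higher in both Cre libraries, the sums of the oligodendrocyte, astrocyte, microglia and endothelial lists are lower in both, the Schwann cell sums overlap, and the skeletal muscle sum spreads from 3.7 to 256 CPM.

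Long non-coding RNAs were also lower with Cre. All 9 long non-coding RNAs of the list were lower, with a median of -2.28. Malat1, a nuclear speckle RNA, stood at 3431 and 5386 CPM with Cre and 29118 and 34747 CPM without (-2.86 ± 0.48), Meg3 at 905 and 1592 CPM against 7851 and 10196 CPM (-2.85 ± 0.42), and Neat1, the scaffold of paraspeckles, at 74.4 and 114 CPM against 656 and 499 CPM (-2.62 ± 0.28). By transcript type, 97.5% of the higher genes were protein coding, against 81.9% of the lower genes and 89.6% of all genes tested. Of 339 long intergenic RNAs 6 were higher and 150 lower, and of 383 antisense genes 4 were higher and 149 lower. Whether the counting used the strand is not given, so reads of an antisense gene and its partner may not be told apart.

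Higher and lower genes also differed in length. Their median transcript lengths were 2194 and 3080 bases, against 2537 bases over all genes, where a gene's length is the one deposited with its counts. In the shortest of the length classes, each with an equal number of genes (126 to 1442 bases), 29.1% were higher and 15.0% lower. In the longest class (4111 to 51960 bases) 13.2% were higher and 33.0% lower, and the median log2 fold change went from 0.45 to -0.48. The part of length in the counts of the gene lists was not tested.

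The smallest p among the lower genes belonged to Noc2l, a nucleolar protein, at 19.8 and 21.8 CPM against 210.2 and 241 CPM (-3.44 ± 0.23, edgeR adjusted p = 2.58e-05). Hsf2, a heat shock transcription factor, had 117 and 97.8 CPM with Cre and 3331 and 5220 CPM without (-5.32 ± 0.42). Zc3h10, a zinc finger protein, had 8.42 and 5.30 CPM against 131 and 276 CPM (-4.88 ± 0.41), and Spaca6, a sperm protein, at 15.6 and 17.0 CPM against 221 and 290 CPM (-3.97 ± 0.37). All 4 were high in both no-Cre libraries. Aspa, an oligodendrocyte enzyme (-3.36 ± 0.29), Nid1, a basement membrane protein (-2.76 ± 0.26), Agt, the angiotensinogen of astrocytes (-3.34 ± 0.33), and Zbtb20, a zinc finger repressor (-2.73 ± 0.27), were others. Of the higher genes with the smallest p, Dffa, an inhibitor of an apoptotic nuclease, had 354 and 317 CPM against 26.1 and 32.7 CPM (3.52 ± 0.25), and Gna14, a G protein alpha subunit, at 54.9 and 55.9 CPM against 2.71 and 3.17 CPM (4.23 ± 0.32).

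Smaller or mixed groups completed the lists. Of 31 Hox genes 2 were higher and 9 lower (21.6% and 21.3% of all genes, median -0.62), with 0 and 1 without animal 35, 1 and 3 without animal 52, 1 and 5 without animal 51, and 3 lower without animal 58. Hoxb4 was at 4.62 and 3.24 CPM against 15.6 and 18.5 CPM (-2.11 ± 0.42). Of 23 clustered protocadherins 2 were lower (median 0.21), with 0 without animal 35, 52 or 51 and 1 without animal 58. Of 17 immediate early genes 2 were higher and 2 lower (-0.53), with 1 and 1 without animal 35, 52 or 51 and 1 and 0 without animal 58. Of 16 genes of antigen presentation and interferon response 2 were higher (1 without animal 35, 52 or 51) and 2 lower (-0.38). H2-D1 was higher at 94.9 and 68.9 CPM against 25.0 and 37.5 CPM (1.39 ± 0.28), and H2-K1, a gene of the same class I family, was lower at 8.42 and 8.70 CPM against 20.0 and 31.0 CPM (-1.57 ± 0.32). Reads of these close relatives could be split by the counting.

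The same contrast in uncrushed mice called 3137 genes higher (20.6%) and 3331 lower (21.9%). Of the genes higher after crush 76.2% were also called higher in uncrushed mice, which is 79.8% of those called there, and of the lower genes the shares were 73.8% and 71.6%. In opposite directions 9 genes were called. The fit shares its spread between both contrasts, crushed and uncrushed mice differ in age, and the genotype entries of uncrushed animals 3 and 4 contradict their titles. The acetylcholine genes summed to 1977.5 CPM in animal 3 and 1917.4 CPM in animal 10, both Cre by title. Their sum was 302.6 CPM in animal 4 and 299.1 CPM in animal 6, both no-Cre by title. Chodl stood at 486 and 574 CPM with Cre and 27.3 and 15.8 CPM without in uncrushed mice, and the difference of its Cre effects was 0.59 ± 0.42 on the log2 scale (unadjusted p = 0.188 in edgeR).

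Sprr1a was at 0.26 and 0.29 CPM with Cre and 0.39 and 0.27 CPM without in uncrushed mice, and Atf3 at 0.26 and 0 CPM against 0 and 0.53 CPM, all near the floor, so no fold is given. Npy had 0.39 and 0.39 CPM with Cre and 4.29 and 3.47 CPM without in uncrushed mice, and the difference of its Cre effects was not called (edgeR adjusted p = 0.386). Its Cre levels there were at or near the floor, so no size is given. Both no-Cre crushed libraries also held Sprr1a above both uncrushed no-Cre libraries. Of 15208 genes 0 (0.0%) were called for a difference of the Cre effect between crushed and uncrushed mice by edgeR, 905 (5.95%) had an unadjusted p under 0.05, DESeq2 called 15 and limma-voom 0. Among the 15 were Npy, Mbp, Zc3h10, Grin2b, Serpinb1a, Noc2l and Leng8. The difference for the injury list was not tested. In uncrushed mice 13 of its 34 genes were higher and 5 lower, with a median of 0.61, against 23, 3 and 1.85 after crush.

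**Figure D5:**
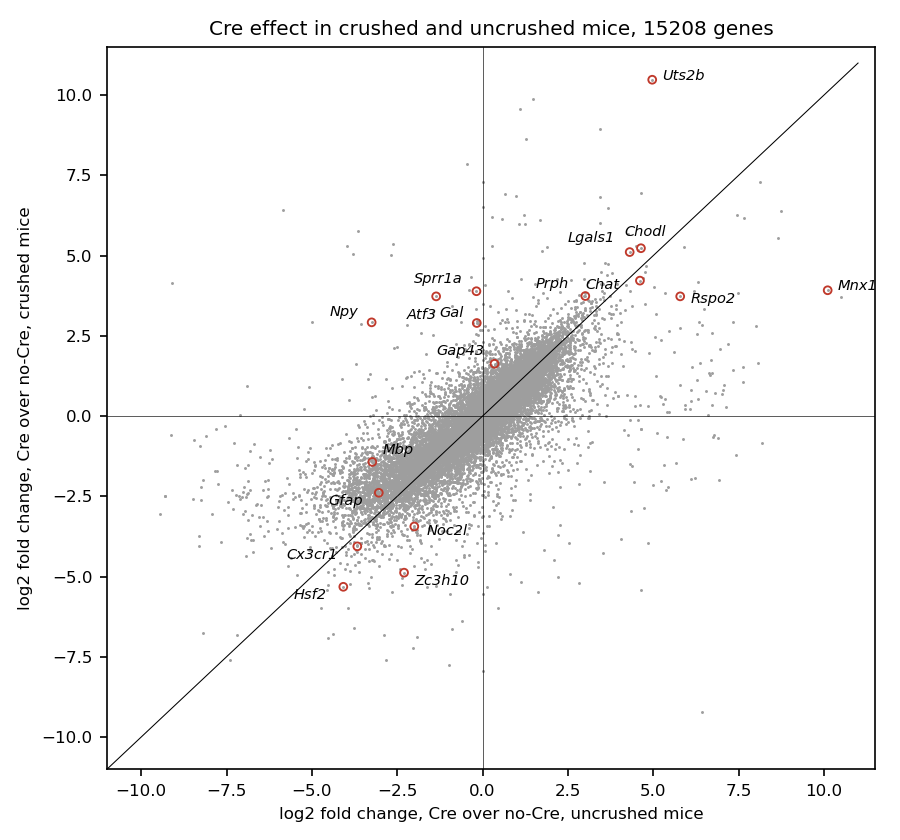
Log2 fold change of Cre over no-Cre in uncrushed mice (horizontal) and in crushed mice (vertical) for 15208 genes, with a line of equal values. Chat, Chodl and Lgals1 lie near the line at high values in both, and Sprr1a, Atf3, Gal and Npy lie well above it. In uncrushed mice Sprr1a and Atf3 are near the floor, as is Npy with Cre. For a difference between the Cre effects edgeR called 0 of the 15208 genes.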

How the data were processed

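Ribosome-bound mRNA of 8 spinal cords was sequenced, and each library came with expected counts, TPM and gene lengths deposited by the authors per gene. Reads were processed with Bowtie2 2.2.0 and RSEM 1.2.12, per the submitters' processing notes, and no source used here names the genome build or annotation. The expected counts deposited by the authors can be fractional and were rounded to whole numbers. The TPM deposited by the authors served for levels between genes, and lengths gave the length classes.

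Groups were taken from sample titles. All 8 libraries were fitted with 1 mean for each of the 4 groups and 4 residual degrees of freedom in edgeR 4.0.16 (quasi-likelihood test, two-sided, R 4.3.3), after a filter on low counts (minimum 10, total 15) and TMM scaling, and p-values were adjusted by Benjamini-Hochberg over 15208 genes. CPM are counts scaled to TMM-adjusted library totals, log2 fold changes are Cre over no-Cre, and the standard error (SE) is the size of that change over the square root of edgeR's F. DESeq2 1.42.0 and limma 3.58.1 were alternatives. Named genes were a fixed set of markers, the genes of smallest p, highest level or widest gap in each direction, and up to 6 members per list; a few list members outside the rule were named to identify small counts, after their values were seen. The members and lists were chosen with earlier results of these data known, so a list's count is not independent evidence. Gene symbols were matched by Ensembl identifier for 37607 of 38924 identifiers, transcript types came from a GENCODE mouse annotation that may not be the authors' own, and promoter sequences from RefSeq GRCm38.p6. The lower bound given for Uts2b from its counts covers counting error only, while each SE also holds the spread between libraries estimated in the fit.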

Additional observations from a re-analysis of the deposited data

How the results depend on the processing

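No paired analysis was possible because no replicate number occurs in more than 1 group. Of 276 named genes 254 were called, and 202 of those were called under every alternative except the grouping of uncrushed libraries by their genotype entries, while 52 lost the call under another and 0 reversed. Of the 22 named genes not called, 8 were called under at least 1 alternative. Grouping by genotype entry puts a Cre and a no-Cre title together in each uncrushed group. It called 0 genes, 0 higher, 0 lower and 0 list members, and turned the interaction of Chat to 4.58. A fit of the 4 crushed libraries alone called 7396. With age as a covariate 2758 of 15208 genes were called (1724 higher, 1034 lower), and 452 of the 1165 list members tested. Without that covariate 6521 genes (42.9%) and 736 list members were called. Within a group age differed only between Cre animals 35 and 52. The age fit therefore nearly repeats leaving out animal 35 and cannot adjust for age on its own. Library size alone gave 1922 lower genes, and an adjusted p below 0.01 gave 3668 genes. The interaction had 15 genes in DESeq2 and 87 with no filter on low counts. Leaving out 1 library at a time gave 2733 to 7392 called genes, 1745 to 3903 higher, 988 to 3492 lower and 449 to 795 list members. A covariate for the presence of Ddx3y, chosen after seeing the data, gave 6237 genes. Uncalled genes changed sign: Klf7 (-0.09 with age, -0.06 to 0.23 over the left-out libraries, lowest without Cre animal 35), Gabbr1 (-0.39 to 0.02, highest without no-Cre animal 58), B2m (-0.12 with age, -0.09 without animal 35 and -0.01 without animal 51, up to 0.59), Hoxc8 (-0.07 without animal 51, up to 0.33), Maf (-0.02 with the Ddx3y covariate) and Scn10a (-5.89 without animal 35, 0.03 without animal 52, 4.35 without animal 58). The cause of these changes, and of the 0 calls with the genotype grouping, was not tested. Levels under 3 counts, 0.19 to 0.5 CPM in the crushed libraries, were not detectable.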
